A study of Mus musculus with 24 samples.

Results

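The proteasome of macrophages was followed here through 51 genes in RNA-seq counts of bone marrow-derived macrophages. The members are every gene whose symbol starts with Psma, Psmb, Psmc, Psmd, Psme, Psmf or Psmg followed by a number, plus Pomp, without pseudogenes, out of 55357 genes listed. Of these 51 genes, 50 passed the filter on low counts. The remaining gene, Psmb11, is the thymus-restricted catalytic subunit and had at most 1 count in any library. Psmc3ip, which codes for a partner protein in meiotic recombination, and Psme2b match by symbol and are not standard subunits, so both are described apart. The cells were grown from marrow of 8- to 12-week-old wild-type C57BL/6J mice in medium with L929 supernatant as the source of M-CSF. They received 100 ng LPS with 100 nM dexamethasone, 100 ng LPS alone, 100 nM dexamethasone alone or neither, and were sampled at 24 h or 4 h. LPS is the bacterial lipopolysaccharide sensed by Toll-like receptor 4, dexamethasone is a synthetic glucocorticoid, and the volume in which the LPS was given is not stated in the labels. Each of the 8 groups has 3 libraries, and no label says whether these come from separate mice or cultures, so p-values measure the spread between libraries, which may be technical. The study asked how glucocorticoid action on LPS-treated macrophages depends on time.

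The 26S proteasome degrades proteins marked with ubiquitin. Its 20S core is a barrel of alpha rings, which gate the entry, and beta rings, which hold the protease sites. The 19S regulatory particle binds the substrate through its non-ATPase subunits and unfolds it with its ring of ATPases. In cells exposed to interferons or microbial products the standard catalytic subunits Psmb6, Psmb7 and Psmb5 are replaced during assembly by Psmb9, Psmb10 and Psmb8, which gives the immunoproteasome. Psme1 and Psme2 form PA28, a ring that caps the core in place of the 19S particle, and both forms are best known for shaping the peptides that MHC class I molecules present. The 5 genes Psmb8, Psmb9, Psmb10, Psme1 and Psme2 are called the inducible members below. The 31 standard 26S subunits followed here are the 7 alpha, 7 beta, 6 ATPase and 11 non-ATPase subunits that match by symbol. Adrm1 and Sem1, whose symbols do not match, are counted with the proteasome-associated genes.

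The 250 bases before the annotated start of a catalytic pair that changed unequally are shown first, since the inducible and the standard partner are read against each other throughout. The sequences are from RefSeq on GRCm38.p6, each on the strand of its gene, and capitals mark the motif matches named after them. Psmb8 lies at chr17:34197945-34198194 (plus strand) and its standard counterpart Psmb5 at chr14:54617996-54618245 (minus strand). Psmb9 lies at chr17:34187331-34187580 (minus strand) and its counterpart Psmb6 at chr11:70525107-70525356 (plus strand).
Psmb8: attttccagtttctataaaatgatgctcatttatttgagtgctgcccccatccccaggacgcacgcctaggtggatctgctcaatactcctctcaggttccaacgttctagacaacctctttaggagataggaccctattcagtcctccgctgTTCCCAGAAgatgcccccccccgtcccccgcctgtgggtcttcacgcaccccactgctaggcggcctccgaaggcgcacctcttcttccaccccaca
Psmb5: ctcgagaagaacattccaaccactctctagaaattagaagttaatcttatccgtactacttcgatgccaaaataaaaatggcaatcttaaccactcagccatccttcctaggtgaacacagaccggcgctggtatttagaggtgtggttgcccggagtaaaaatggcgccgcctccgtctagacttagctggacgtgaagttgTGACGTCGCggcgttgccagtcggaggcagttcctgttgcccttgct
Psmb9: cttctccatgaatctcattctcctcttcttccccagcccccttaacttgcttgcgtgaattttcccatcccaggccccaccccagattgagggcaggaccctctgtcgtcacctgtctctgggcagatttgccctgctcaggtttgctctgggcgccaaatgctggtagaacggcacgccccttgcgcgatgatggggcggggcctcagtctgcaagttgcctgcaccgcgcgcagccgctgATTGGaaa
Psmb6: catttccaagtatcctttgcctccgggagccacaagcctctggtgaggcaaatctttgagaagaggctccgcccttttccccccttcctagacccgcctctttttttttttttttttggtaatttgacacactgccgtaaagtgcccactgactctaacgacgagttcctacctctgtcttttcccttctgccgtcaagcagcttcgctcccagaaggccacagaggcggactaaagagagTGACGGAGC
The Psmb9 window spans all 225 bases between Psmb9 and Tap1, a subunit of the peptide transporter, which is read in the other direction.

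Both strands of these windows were searched for 5 motifs. The core of the interferon-stimulated response element was spelled as GAAA and GAAA with any 2 bases between them, a kB site as GGG and TTCC with any 3 bases between them, the gamma-activated site as TTCNNNGAA, the core of the antioxidant response element TGACNNNGC, and the CCAAT box CCAAT. The motifs were allowed to overlap. Psmb8 held a gamma-activated site 97 to 89 bases before its start, a motif found in 7.02% of the 32851 RefSeq windows of the same length. Psmb9 held a CCAAT box 8 to 4 bases before its start, as did 33.8% of all windows. The standard partners Psmb5 and Psmb6 each held an antioxidant response element core, 47 to 39 and 9 to 1 bases before the start, as did 10.2% of all windows. Windows on chromosome 18, where Psma8 and Psmg2 lie, were left out for the members but not for the 32851 windows. Of the 51 members, 43 were searched, with 46 windows in all. Antioxidant response element cores stood in 5 of these 46 (10.9%), CCAAT boxes in 15 (32.6%), kB sites in 3 (6.52%, against 4.65% of all windows), interferon-stimulated cores in 3 (6.52%, against 2.98%) and gamma-activated sites in 2 (4.35%). No searched motif was found in the windows of Psmb10, Psme1 or Psme2. A match describes these letters in this window and is not a bound site.

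Library totals ran from 18326206 to 27908164 counts, and the members held 0.346 to 0.637% of them. Summed levels of 7 macrophage markers were 16300 to 51050 CPM (counts scaled to a common library size with the TMM factor), and 0 of them were absent. Lyz2 alone gave 10600 to 41210 CPM of this sum, while Mertk ranged from 20.5 to 429 CPM and Fcgr1 from 69.1 to 1188 CPM. Summed levels of 8 lymphocyte and 6 stromal markers did not exceed 2.69 and 8.42 CPM in any library. Dendritic cell markers (8 genes) summed to 1.035 to 43.8 CPM and neutrophil markers (8 genes) to 0.881 to 131 CPM. The TMM factors were 0.679 to 0.705 in the LPS libraries of 4 h and 1.17 to 1.18 in the untreated libraries of 4 h, so results of 4 h that involve LPS depend on the scaling. With library size as the only scale, the median of all genes shifts by -0.77 on the log2 scale in LPS against untreated cells at 4 h, by -0.20 at 24 h, and by 0.22 in both treatments against LPS at 4 h. These are bulk libraries, in which fewer cells of a type and less RNA per cell cannot be told apart.

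LPS alone at 4 h raised all 5 inducible members 4.64-fold or more under TMM scaling. The 31 standard 26S subunits had a median log2 fold change of 0.73, against 3.03 for the inducible members, in a direction that depends on the scaling, and Psma6 (2.82) was the 1 standard subunit within the inducible range. Psmb10, the inducible trypsin-like subunit, had 492.5, 543 and 506.5 CPM in LPS-treated cells, against 45.5, 46.0 and 42.2 CPM in untreated cells. Every LPS library thus stood above every untreated one, with a log2 fold change of 3.53 ± 0.07 (standard error, adjusted p = 1.5e-32 in edgeR's quasi-likelihood test, n = 3 each). Psmb9, the inducible counterpart of Psmb6, had 220, 253 and 237.5 CPM in LPS-treated cells, against 28.4, 29.1 and 29.6 CPM in untreated cells (3.03 ± 0.08, adjusted p = 1.4e-26). Psmb8, the inducible chymotrypsin-like subunit, had 396, 436 and 402 CPM in LPS-treated cells, against 70.9, 74.5 and 71.8 CPM in untreated cells (2.51 ± 0.06, adjusted p = 6.9e-30). Neither gene overlapped between the groups. Psme2, the beta chain of PA28, had 779, 869.5 and 848 CPM in LPS-treated cells, against 86.0, 87.0 and 84.6 CPM in untreated cells (3.28 ± 0.06, adjusted p = 7.1e-33). Its partner Psme1 had 394, 391 and 382.5 CPM in LPS-treated cells, against 80.6, 88.1 and 83.0 CPM in untreated cells (2.21 ± 0.06, adjusted p = 1.2e-28). Again the LPS libraries lay apart from the untreated ones in both genes.

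**Figure D1:**
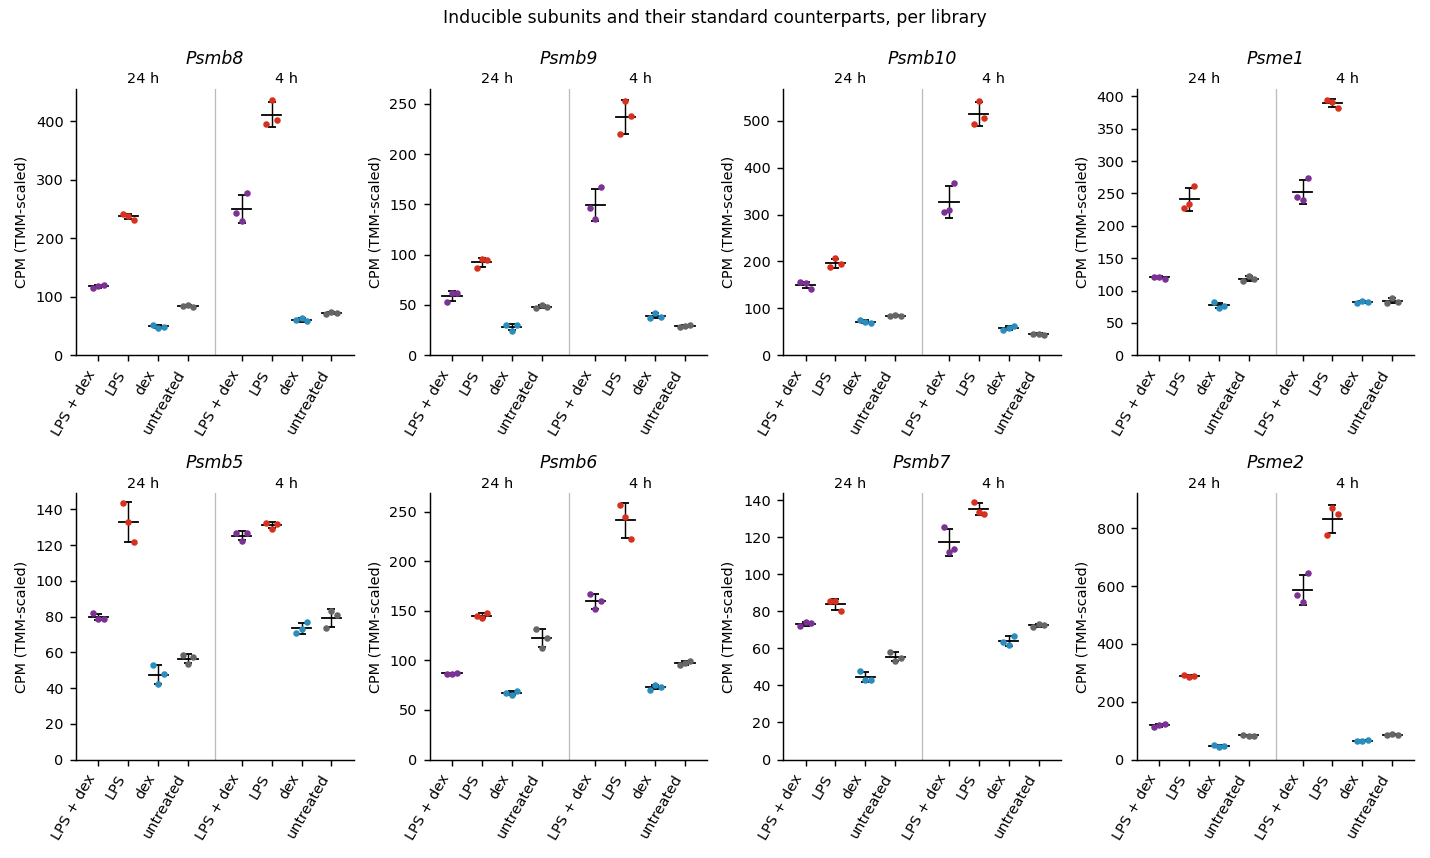
Level in CPM (vertical axis, linear, from 0) of the 5 inducible members and the 3 standard catalytic subunits in each of 24 libraries, by treatment and time. Points are libraries, horizontal bars means and whiskers standard deviations of 3 libraries. Psmb10 stands at 492.5 to 543 CPM with LPS at 4 h, against 42.2 to 46.0 CPM in untreated cells, while Psmb5 stands at 129 to 132.5 CPM against 73.5 to 83.3 CPM, a difference that turns to -0.04 on the log2 scale with library size only.

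The standard catalytic subunits were also higher in LPS-treated cells at 4 h under the main scaling. Psmb6, the caspase-like subunit that Psmb9 replaces, had 257, 245 and 222.5 CPM in LPS-treated cells, against 95, 97.2 and 99.1 CPM in untreated cells (1.32 ± 0.05, adjusted p = 3.9e-22). Psmb7, the trypsin-like subunit, averaged 135 CPM in LPS-treated cells and 72.4 CPM in untreated cells (0.90 ± 0.05, adjusted p = 3e-17). Psmb5, the chymotrypsin-like subunit, had 132.5, 129 and 132 CPM in LPS-treated cells, against 73.5, 83.3 and 81.1 CPM in untreated cells (0.73 ± 0.06, adjusted p = 1.1e-12). None of the 3 overlapped between the groups. With library size as the only scale, Psmb5 came to a log2 fold change of -0.04 and was not called (adjusted p = 0.54), while Psmb8 stayed at 1.74.

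Of the 50 members tested, 41 were higher and 5 lower in LPS-treated cells at 4 h, where 34.2% of all 14985 genes tested were called higher and 38.8% lower. The members' median log2 fold change was 0.72, against -0.07 over all genes. The libraries of the groups did not overlap in 46 of the 50, against 72.3% of all genes. Of the 31 standard 26S subunits, 30 were called higher and 0 lower (median 0.73), and 6 of them rose at least 2-fold. This count depends on the scaling: with library size only, 11 of the 31 were higher and 14 lower (median -0.04), while all 5 inducible members were higher under either scale (median 2.26 with library size only). As a share of all counts, the 31 standard subunits held 0.392 to 0.416% of the LPS libraries and 0.375 to 0.386% of the untreated libraries of 4 h. The 5 inducible members held 0.156 to 0.169% of the LPS libraries and 0.0363 to 0.0384% of the untreated ones, so their share was several times larger.

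**Figure D2:**
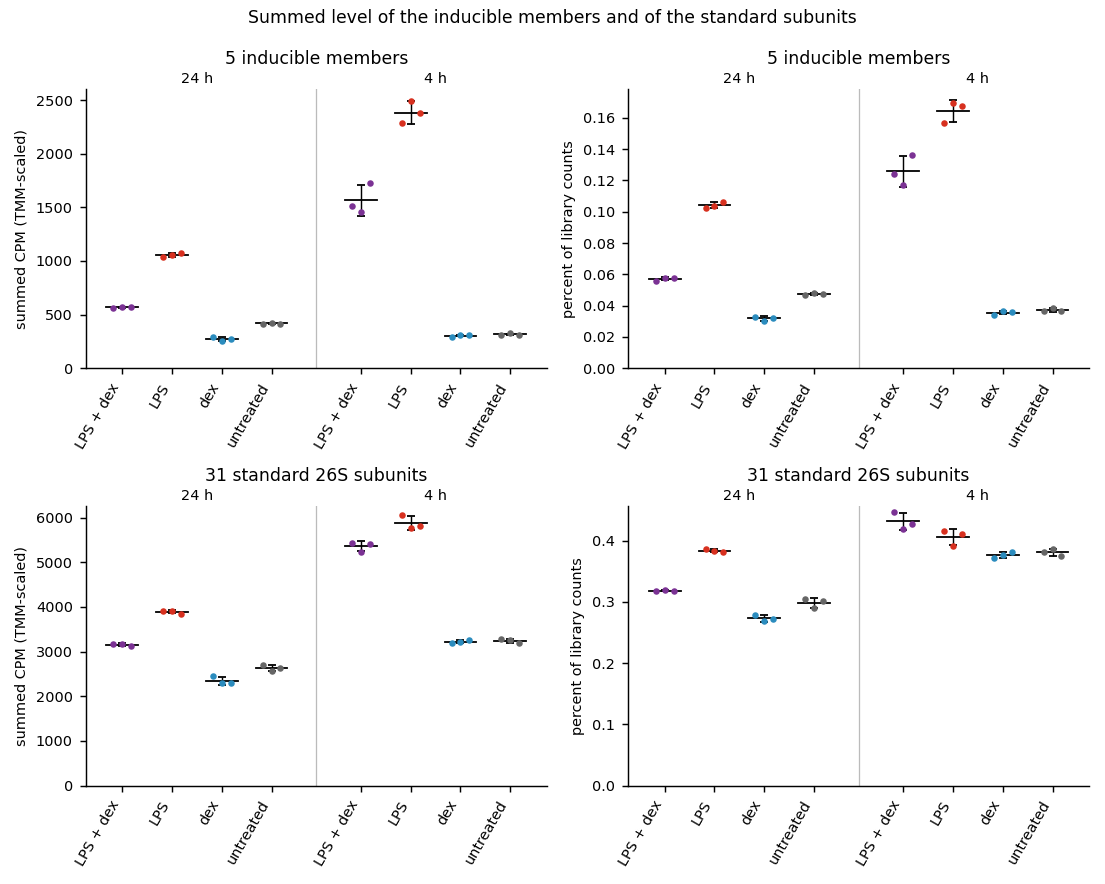
Summed level of the 5 inducible members (top) and of the 31 standard 26S subunits (bottom), as TMM-scaled CPM (left) and as percent of all counts of a library (right), with both axes linear from 0. Points are libraries, bars means and whiskers standard deviations of 3 libraries. The standard subunits of 4 h sum to 5774 to 6064 CPM with LPS and 3181 to 3275 CPM untreated, but to 0.392 to 0.416% and 0.375 to 0.386% of counts.

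Among the core subunits, Psma6, an alpha ring subunit, rose most in its ring. It had 706.5, 701 and 728.5 CPM in LPS-treated cells, against 105, 95.5 and 102.5 CPM in untreated cells at 4 h (2.82 ± 0.05, adjusted p = 1.2e-32). All 7 alpha subunits were called higher (median 1.16), and the smallest change was that of Psma1, at 150 CPM in LPS-treated and 134.5 CPM in untreated cells (0.16 ± 0.05, adjusted p = 0.0082). The libraries of Psma1 overlapped, and its call was lost without LPS replicate 1 (0.11, adjusted p = 0.093) or without untreated replicate 3 (0.115, adjusted p = 0.085), while with library size only it stood at -0.61. All 4 non-catalytic beta subunits were higher, from 0.35 ± 0.05 for Psmb1 (adjusted p = 6.2e-07) to 0.95 ± 0.06 for Psmb4 (adjusted p = 5.2e-17). With library size only, Psmb1 stood at -0.42.

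Among the members of the 19S particle, 5 of 6 ATPases and all 11 non-ATPase subunits were called higher at 4 h of LPS. The ATPases that were called ranged from Psmc3 (0.45 ± 0.05, adjusted p = 8.3e-10) to Psmc6 (0.84 ± 0.06, adjusted p = 7.1e-16). Psmc1 was not called, with 137, 139 and 136 CPM in LPS-treated cells and 134, 131 and 125 CPM in untreated cells (0.08). The non-ATPase subunits ran from Psmd1, a scaffold subunit (0.38 ± 0.05, adjusted p = 1.1e-07), to Psmd11 (0.96 ± 0.06, adjusted p = 1.2e-17). Psmc3 stood at -0.32 and Psmd1 at -0.39 with library size only, and the Psmc6 call was lost (0.065, adjusted p = 0.3).

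The chaperones that assemble the particles moved in different directions. Psmd10, the 19S chaperone known as gankyrin, had 108, 106.5 and 101 CPM in LPS-treated cells, against 22.04, 23.9 and 22.5 CPM in untreated cells at 4 h (2.21 ± 0.07, adjusted p = 3.9e-25). Psmd5, another 19S chaperone, fell (35.05 CPM in LPS-treated and 42.2 CPM in untreated cells, -0.26 ± 0.08, adjusted p = 0.0031), and Psmd9 was not called (0.12). Of the 20S chaperones, Pomp, which matures the core and favours the inducible subunits, averaged 189 CPM in LPS-treated cells and 111 CPM in untreated cells (0.77 ± 0.05, adjusted p = 1.1e-15). Psmg1, which helps to build the alpha ring, fell (9.44 and 14 CPM, -0.57 ± 0.13, adjusted p = 0.00012). Scaled by library size only, Pomp stood at 0.00 (adjusted p = 0.97).

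Of the other activators, Psme4, the PA200 cap, was at 167.5 CPM in LPS-treated and 95.4 CPM in untreated cells (0.81 ± 0.05, adjusted p = 3.5e-16), and the inhibitor Psmf1 at 38.1 and 32.7 CPM (0.22 ± 0.07, adjusted p = 0.006). The Psmf1 call was lost without LPS replicate 1 (0.142, adjusted p = 0.097) or without untreated replicate 2 (0.165, adjusted p = 0.056), and Psmf1 stood at -0.55 with library size only, a scale under which the Psme4 call was lost too (0.04, adjusted p = 0.47). Psma8, the testis alpha subunit, was scarce (0.325 and 1.15 CPM, -1.86 ± 0.44, adjusted p = 0.00033), and Psmc3ip was at 1.57 CPM in LPS-treated and 5.92 CPM in untreated cells (-1.91 ± 0.28, adjusted p = 1.2e-07). Psme2b followed Psme2, with 71.2 CPM in LPS-treated and 9.91 CPM in untreated cells (2.85 ± 0.10, adjusted p = 6.4e-25). Its value is uncertain: 52.0% of the 738 stretches of 100 bases in its transcripts also occur in Psme2, and read pairs with several alignments were left out of the counts, so reads from such stretches could be missing for both genes. Exons that overlap a neighbouring gene make up 14.7% of the exon bases of Psmb8 (Gm20496), 12.1% of Psmb5 (Mir686), 11.8% of Psmb7 (Nek6) and 5.79% of Psmb9 (Tap1), and 21.2% of Psmc3ip (Mlx). The counting was unstranded and left out pairs that overlap several genes, so reads from these bases could be missing from the counts.

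At 4 h the summed dendritic cell markers were 33.3 to 43.8 CPM in LPS-treated cells and 6.03 to 7.49 CPM in untreated cells. Of these 8 markers 5 were called higher, where 34.2% of all genes were. Summed neutrophil markers were 96.0 to 131 CPM and 34.1 to 50.3 CPM, with 4 of 8 called higher, against the same 34.2%. Their part in the changes of the proteasome genes was not tested.

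LPS alone at 24 h left all 5 inducible members higher, by smaller factors. Psme2 had 293, 285 and 289.5 CPM in LPS-treated cells, against 86.4, 81.4 and 82.3 CPM in untreated cells (1.79 ± 0.06, adjusted p = 8.9e-25). Psmb8 had 241, 239 and 232 CPM in LPS-treated cells, against 84.9, 85.8 and 81.6 CPM in untreated cells (1.497 ± 0.06, adjusted p = 1e-22). Psmb10 had 188, 206.5 and 194 CPM in LPS-treated cells, against 83.4, 85.2 and 83.6 CPM in untreated cells (1.22 ± 0.06, adjusted p = 6e-19). In these 3 genes no library of one group reached into the other. Psme1 averaged 241 CPM in LPS-treated cells and 118 CPM in untreated cells (1.02 ± 0.06, adjusted p = 2.6e-18), and Psmb9 averaged 92.2 and 48.3 CPM (0.93 ± 0.08, adjusted p = 1.3e-12).

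The standard subunits were raised at 24 h as well, and here the direction did not rest on the scaling. Of the 31 standard 26S subunits, 30 were called higher and 1 lower (median 0.60), and with library size only 29 were higher and 1 lower (median 0.40). Over all members 43 were higher and 3 lower, where 29.7% of all genes were called higher and 30.6% lower, and 47 did not overlap between groups, against 68.1% of all genes. Psmb5 had 144, 133 and 121.5 CPM in LPS-treated cells, against 58.4, 53.7 and 57.4 CPM in untreated cells (1.23 ± 0.07, adjusted p = 1.2e-18). Psmb7 averaged 83.9 CPM in LPS-treated cells and 55.4 CPM in untreated cells (0.60 ± 0.06, adjusted p = 9e-12). Psmb6 was barely higher, at 145, 143 and 147.5 CPM in LPS-treated cells, against 131, 113 and 123 CPM in untreated cells (0.25 ± 0.05, adjusted p = 0.00017), and its call was lost with library size only (0.05, adjusted p = 0.48).

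The standard subunit that fell at 24 h of LPS was Psmd8, a lid subunit of the 19S particle, at 125 CPM in LPS-treated cells and 182 CPM in untreated cells (-0.54 ± 0.06, adjusted p = 9.5e-11). The other 10 non-ATPase subunits rose, up to 0.78 ± 0.05 for Psmd7 (adjusted p = 1.3e-15). Psma6 was at 153 CPM in LPS-treated and 68.2 CPM in untreated cells (1.17 ± 0.05, adjusted p = 1.6e-20). The smallest called alpha ring change was that of Psma4 (0.35 ± 0.06, adjusted p = 4.9e-06). All 6 ATPases rose, from Psmc3 (0.33 ± 0.05, adjusted p = 1e-06) to Psmc5 (0.77 ± 0.05, adjusted p = 1.8e-15).

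Psmd10 was the chaperone with the largest change at 24 h, with 84.9, 90.9 and 86.7 CPM in LPS-treated cells, against 23.6, 21.9 and 23.5 CPM in untreated cells (1.93 ± 0.07, adjusted p = 9.4e-23). Psmd5 was higher at 24 h (49.2 and 27.7 CPM, 0.83 ± 0.08, adjusted p = 1.2e-11). Pomp averaged 136 CPM in LPS-treated cells and 112 CPM in untreated cells (0.28 ± 0.05, adjusted p = 2.2e-05), a call lost with library size only (0.08, adjusted p = 0.18). Psmc3ip was lower (1.14 and 3.06 CPM, -1.42 ± 0.30, adjusted p = 8.9e-05). At this time the summed dendritic cell markers were at 3.63 to 6.70 CPM with LPS against 12.1 to 13.2 CPM untreated, and the neutrophil markers were at 8.90 to 10.6 CPM against 2.37 to 2.90 CPM. Among the dendritic markers Kit was lower (0.564 CPM with LPS and 10.2 CPM untreated), as were Cd209a and Clec9a, while Ccr7 (3.34 and 0.478 CPM) and Xcr1 (0.779 and 0.234 CPM) were called higher. Within the neutrophil sum S100a8 was at 6.105 to 7.55 CPM with LPS and 0.587 to 1.18 CPM untreated, and Camp at 1.64 to 2.20 and 0 to 0.136 CPM. S100a9 did not rise, at 0.367 to 0.943 CPM with LPS and 0.906 to 1.12 CPM untreated. The part of these markers was not tested.

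**Figure D3:**
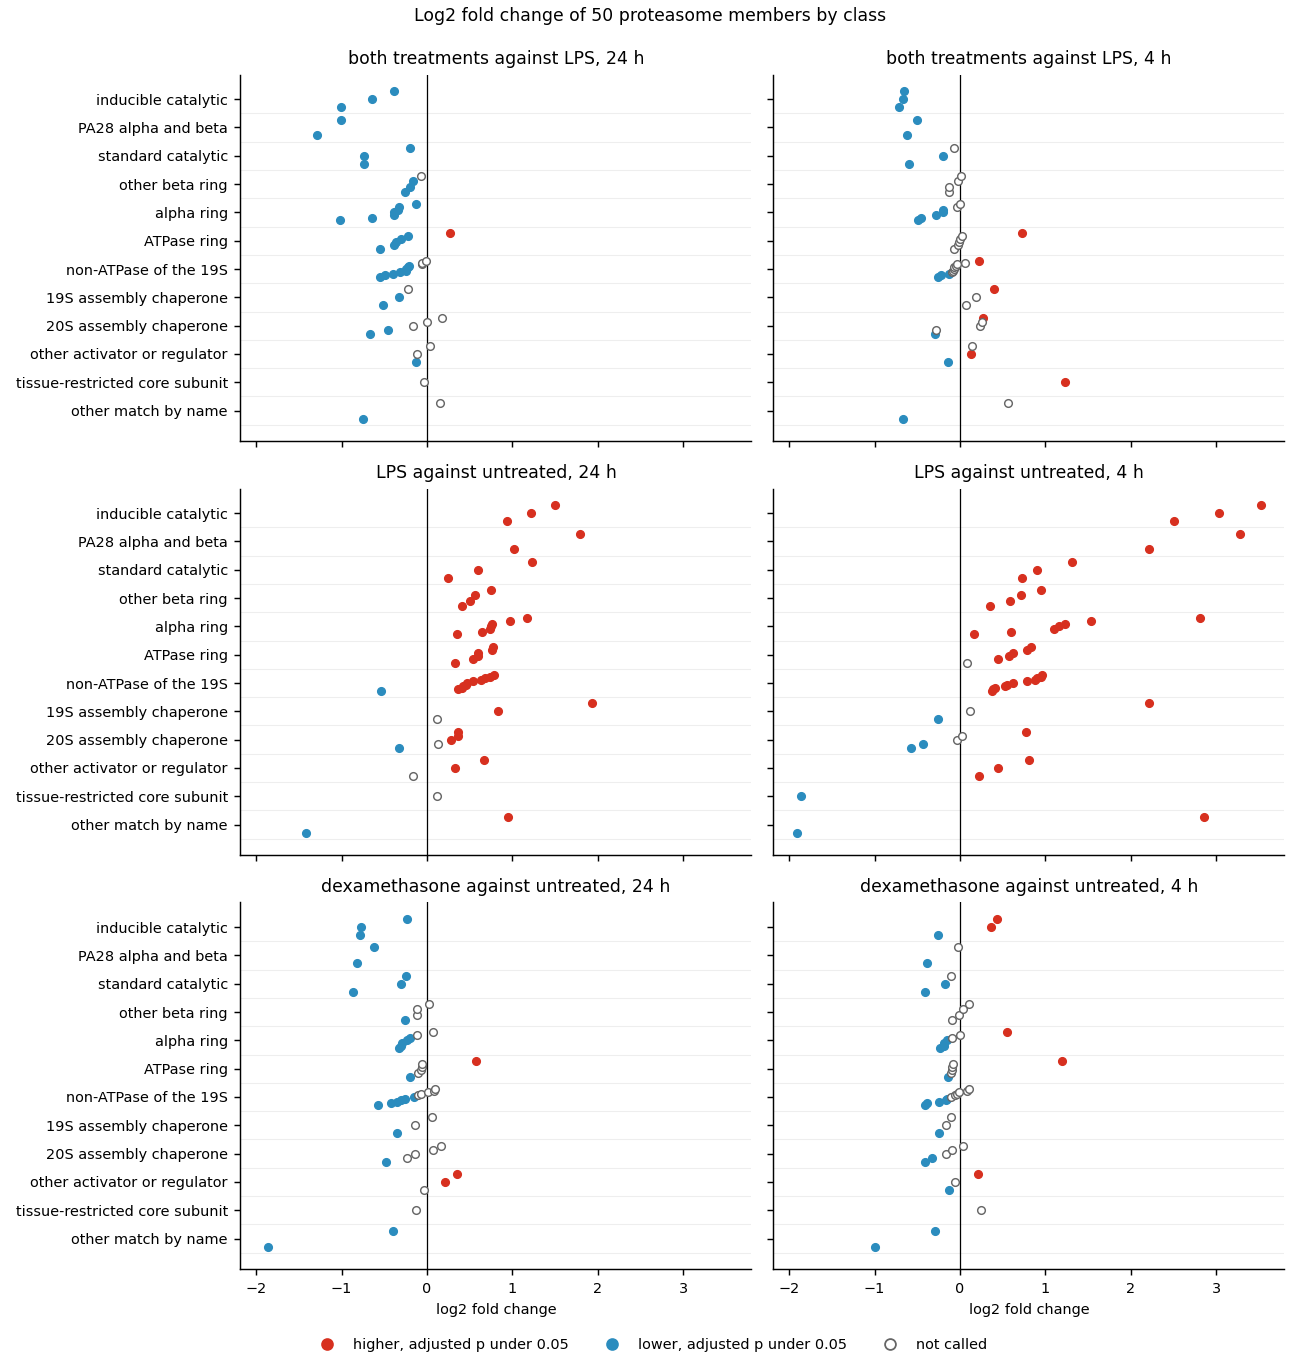
Log2 fold change (horizontal axis) of the 50 members tested, by class (rows), in the 6 treatment comparisons, each with the treated group over its control. Each point is 1 gene, filled where the adjusted p is under 0.05 (red higher, blue lower) and open otherwise. In LPS against untreated cells at 4 h the inducible catalytic subunits lie between 2.51 and 3.53 and the standard catalytic subunits between 0.73 and 1.32, where Psmb5 turns to -0.04 with library size only.

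The effect of LPS at 24 h was set against that at 4 h with the interaction term of the same fit. All 5 inducible members had the smaller effect at 24 h, by -2.31 ± 0.09 on the log2 scale for Psmb10 (adjusted p = 1.8e-22) and -2.10 ± 0.11 for Psmb9 (adjusted p = 1e-17). The differences were -1.48 ± 0.08 for Psme2 (adjusted p = 5.8e-18), -1.19 ± 0.08 for Psme1 (adjusted p = 8.5e-16) and -1.01 ± 0.08 for Psmb8 (adjusted p = 1.8e-13). Psmb5 went the other way, with the larger effect at 24 h (0.51 ± 0.09, adjusted p = 8.9e-06). Psmb6 had the smaller effect at 24 h (-1.07 ± 0.08, adjusted p = 1.1e-14), as did Psmb7 (-0.30 ± 0.08, adjusted p = 0.00096). Over all members 8 of these differences were called higher and 23 lower, where 30.8% of all genes were higher and 30.5% lower. With library size only the members' counts became 32 higher and 9 lower, and Psmb7 turned round to 0.27, while the 5 inducible members still had the smaller effect at 24 h (median -0.91).

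Dexamethasone given with LPS lowered all 5 inducible members at 4 h by a similar step. Psmb8 had 243, 230 and 277 CPM with both treatments, against 396, 436 and 402 CPM with LPS alone (-0.72 ± 0.06, adjusted p = 1.6e-13). Psmb9 had 146, 135 and 167 CPM with both treatments, against 220, 253 and 237.5 CPM with LPS alone (-0.66 ± 0.07, adjusted p = 1.9e-09). Psmb10 had 305, 309 and 367 CPM with both treatments, against 492.5, 543 and 506.5 CPM with LPS alone (-0.65 ± 0.06, adjusted p = 1.5e-11). In none of the 3 did the libraries of the groups overlap, and all libraries with both treatments stayed above every untreated library of 4 h. Psme1 averaged 252.5 CPM with both treatments and 389 CPM with LPS alone (-0.62 ± 0.05, adjusted p = 3.8e-12). Psme2 averaged 586 CPM with both treatments and 832 CPM with LPS alone (-0.51 ± 0.06, adjusted p = 1.1e-09). The libraries of the groups did not overlap in either PA28 chain.

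Most standard subunits were not called in the same comparison. Of all members, 6 were higher, 18 lower and 26 not called with both treatments at 4 h, where 23.9% of all genes were higher and 25.4% lower. The members' share called lower is larger than the background, but of the 31 standard 26S subunits 2 were higher and 10 lower (median -0.07). Of all members 30 did not overlap between groups, against 49.8% of all genes. With library size only 19 of the 31 were higher and 3 lower, so their direction depends on the scale, while the 5 inducible members were lower under either scale (median -0.43 with library size only). The number of members called higher ranged from 3, without LPS replicate 2, to 8 when single libraries were left out.

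Among the standard catalytic subunits, Psmb6 was lowered about as much as the inducible members, with 167, 152 and 160 CPM with both treatments, against 257, 245 and 222.5 CPM with LPS alone (-0.60 ± 0.05, adjusted p = 1.1e-11). Psmb7 averaged 117 CPM with both treatments and 135 CPM with LPS alone (-0.20 ± 0.05, adjusted p = 0.0018), and stood at 0.02 with library size only. Psmb5 was not called, at 125 and 131 CPM (-0.06, 95% interval -0.20 to 0.07). In the alpha ring 5 of 7 subunits were lower, with the largest change in Psma5 (145 and 204 CPM, -0.50 ± 0.05, adjusted p = 4.1e-10). Psma6 averaged 519 CPM with both treatments and 712 CPM with LPS alone, and was lower too (-0.46). Pomp was lower (154 and 189 CPM, -0.30 ± 0.05, adjusted p = 1.1e-05), a call lost with library size only (-0.07, adjusted p = 0.21).

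Psmc1, an ATPase of the ring that opens the core, was the standard subunit that dexamethasone raised most. It had 222, 228 and 230 CPM with both treatments, against 137, 139 and 136 CPM with LPS alone at 4 h (0.72 ± 0.05, adjusted p = 1e-13). The groups were far apart, and the other 5 ATPases were not called. Psmd3 was slightly higher (0.22 ± 0.05, adjusted p = 0.00037), Psmd8 was lower (-0.26 ± 0.05, adjusted p = 0.00014, lost with library size only at -0.04, adjusted p = 0.59) and the chaperone Psmd5 was higher (46.1 and 35.05 CPM, 0.39 ± 0.08, adjusted p = 7.9e-05). Psmd10, which LPS had raised, was not called (111 and 105 CPM, 0.08). Psma8 was higher at under 1 CPM (0.768 and 0.325 CPM, 1.23 ± 0.49, adjusted p = 0.037), a call lost when LPS replicate 1 or 2 was left out (1.336 and 0.929), and when replicate 2 or 3 of both treatments was (1.209 and 0.991). Summed dendritic cell markers at 4 h were 11.9 to 16.2 CPM with both treatments and 33.3 to 43.8 CPM with LPS alone. Flt3 went against this sum, at 4.65 to 6.805 CPM with both treatments and 0.685 to 1.464 CPM with LPS alone. The part of these markers was not tested.

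At 24 h dexamethasone lowered the inducible members under LPS again, with a wider spread among them. Psme2 had 114, 119 and 124 CPM with both treatments, against 293, 285 and 289.5 CPM with LPS alone (-1.28 ± 0.06, adjusted p = 5.4e-20). Psmb8 had 116, 119 and 120.5 CPM with both treatments, against 241, 239 and 232 CPM with LPS alone (-1.01 ± 0.06, adjusted p = 3.3e-17). Psme1 had 121, 121 and 118 CPM with both treatments, against 228, 234 and 261 CPM with LPS alone (-1.003 ± 0.06, adjusted p = 2e-17). Psme1 with both treatments thus lay in the range of untreated cells of that time (115 to 123 CPM), whereas Psmb8 and Psme2 stayed above their own untreated values. Psmb9 averaged 59.0 CPM with both treatments and 92.2 CPM with LPS alone (-0.64 ± 0.08, adjusted p = 1.4e-08). Psmb10 was lowered least, with 155, 153 and 142 CPM with both treatments, against 188, 206.5 and 194 CPM with LPS alone (-0.39 ± 0.06, adjusted p = 2.4e-06).

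The standard subunits were mostly lower in this comparison. Of all members 37 were called lower and 1 higher, where 22.6% of all genes were lower and 21% higher, and the groups did not overlap in 40, against 55.2% of all genes. The median was -0.31, against 0.00 over all genes. Of the 31 standard 26S subunits 26 were lower and 1 higher (median -0.30), and with library size only 25 were lower and 1 higher. Psmb5 had 82.0, 78.7 and 78.6 CPM with both treatments, against 144, 133 and 121.5 CPM with LPS alone (-0.74 ± 0.06, adjusted p = 4.2e-12). Psmb6 had 86.8, 86.5 and 87.8 CPM with both treatments, against 145, 143 and 147.5 CPM with LPS alone (-0.74 ± 0.06, adjusted p = 9.6e-14). The log2 changes of both standard genes were larger in size than that of Psmb10, a difference between genes that was not tested, and Psmb7 changed least of the 3 (73.2 and 83.9 CPM, -0.20 ± 0.06, adjusted p = 0.004).

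The alpha ring was lower throughout, from Psma6 (140 and 153 CPM, -0.13 ± 0.05, adjusted p = 0.043) to Psma5 (47.5 and 96.1 CPM, -1.02 ± 0.06, adjusted p = 1.7e-17). The call of Psma6 was lost without any 1 of the 3 libraries with both treatments (-0.105 to -0.141), without LPS replicate 2 (-0.113) or 3 (-0.123), and in DESeq2 (adjusted p = 0.072). Of the ATPases, Psmc6 fell most (-0.56 ± 0.06, adjusted p = 2.5e-10), and Psmc1 was the 1 member called higher, with 208, 207 and 206 CPM with both treatments, against 180, 182 and 156 CPM with LPS alone (0.26 ± 0.05, adjusted p = 0.00011). Psmd7 fell most among the non-ATPase subunits (-0.56 ± 0.05, adjusted p = 3.2e-11). Of the chaperones that LPS had raised at 24 h, Psmd5 was lower with both treatments (34.4 and 49.2 CPM, -0.52 ± 0.08, adjusted p = 9.1e-07), as were Psmd10 at 69.6 and 87.5 CPM (-0.33 ± 0.07, adjusted p = 0.00013) and Pomp at 98.5 and 136 CPM (-0.46 ± 0.05, adjusted p = 4.1e-09). Psmg4 was lower as well (8.72 and 13.8 CPM, -0.67 ± 0.13, adjusted p = 5.9e-05). Summed dendritic cell markers at 24 h were 1.035 to 1.25 CPM with both treatments and 3.63 to 6.70 CPM with LPS alone, and neutrophil markers 17.3 to 23.2 CPM and 8.90 to 10.6 CPM. Within the neutrophil sum S100a8 was higher with both treatments, at 16.15 to 21.9 CPM against 6.105 to 7.55 CPM with LPS alone. Camp went the other way, at 0.157 to 0.621 CPM and 1.64 to 2.20 CPM. The part of these markers was not tested.

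The dexamethasone effect under LPS at 24 h was tested against that at 4 h. It was stronger at 24 h for Psme2 (-0.78 ± 0.08, adjusted p = 4.9e-10), Psme1 (-0.38 ± 0.08, adjusted p = 0.00015) and Psmb8 (-0.29 ± 0.08, adjusted p = 0.0035), and for the standard subunit Psmb5 (-0.67 ± 0.09, adjusted p = 1.5e-07). Psmb10 had the weaker effect at 24 h (0.27 ± 0.09, adjusted p = 0.012), a call lost without replicate 1 of both treatments at 4 h (0.218, adjusted p = 0.051) and with library size only (0.08, adjusted p = 0.44). Psmb9 was not called (0.02, 95% interval -0.20 to 0.24), nor were Psmb6 and Psmb7. Over all members 3 differences were higher and 24 lower, where 19% of all genes were higher and 19.8% lower. The counts were 0 and 40 with library size only.

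Dexamethasone alone split the inducible members at 4 h. Psmb10 had 53.1, 57.1 and 61.5 CPM in dexamethasone-treated cells, against 45.5, 46.0 and 42.2 CPM in untreated cells (0.36 ± 0.07, adjusted p = 2.8e-05). Psmb9 had 37.5, 41.9 and 38.1 CPM in dexamethasone-treated cells, against 28.4, 29.1 and 29.6 CPM in untreated cells (0.43 ± 0.08, adjusted p = 5.4e-05). Both were higher without overlap. Psmb8 was lower at 60.6 CPM in dexamethasone-treated and 72.4 CPM in untreated cells (-0.26 ± 0.06, adjusted p = 0.00054). Psme2 was lower as well, at 65.8 and 85.9 CPM (-0.38 ± 0.06, adjusted p = 1.8e-06). Psme1 was not called and its libraries overlapped (82.2 and 83.9 CPM, -0.03, 95% interval -0.15 to 0.09).

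Of all members 5 were higher and 20 lower with dexamethasone alone at 4 h, where 17.6% of all genes were higher and 23.7% lower, and 28 did not overlap, against 49.3% of all genes. When only the groups compared entered the fit, 8 were higher and 13 lower. Psmc1 had 297, 292 and 304 CPM in dexamethasone-treated cells, against 134, 131 and 125 CPM in untreated cells (1.19 ± 0.05, adjusted p = 5.3e-20), and was the 1 subunit changed at least 2-fold upward. Psma6 was the other standard subunit called higher, at 148 CPM in dexamethasone-treated and 101 CPM in untreated cells (0.55 ± 0.05, adjusted p = 3.7e-11). Of the standard catalytic subunits Psmb6 was lower (73.0 and 97.1 CPM, -0.41 ± 0.06, adjusted p = 1.3e-07), and Psmb7 was lower by -0.18 ± 0.06 (adjusted p = 0.0088), a call lost without dexamethasone replicate 2 (adjusted p = 0.058). Psmb5 was not called (-0.11, 95% interval -0.24 to 0.03). Psmd1 fell most of the 19S subunits (123 and 163 CPM, -0.41 ± 0.05, adjusted p = 1e-07).

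At 24 h all 5 inducible members were lower with dexamethasone alone. Psme2 had 50.2, 43.5 and 47.9 CPM in dexamethasone-treated cells, against 86.4, 81.4 and 82.3 CPM in untreated cells (-0.82 ± 0.06, adjusted p = 6.5e-14). Psmb9 had 29.8, 24.1 and 29.8 CPM in dexamethasone-treated cells, against 46.6, 50.1 and 48.1 CPM in untreated cells (-0.79 ± 0.08, adjusted p = 6.4e-10). Psmb8 averaged 49.1 CPM in dexamethasone-treated cells and 84.1 CPM in untreated cells (-0.78 ± 0.06, adjusted p = 1.5e-13). None of these overlapped. Psme1 was lower by -0.62 ± 0.06 (adjusted p = 1.2e-11), and Psmb10 changed least (71.8 and 84.1 CPM, -0.23 ± 0.06, adjusted p = 0.0031). Psmb6 was the standard catalytic subunit that fell most, with 67.3, 64.9 and 68.8 CPM in dexamethasone-treated cells, against 131, 113 and 123 CPM in untreated cells (-0.87 ± 0.06, adjusted p = 1.1e-15).

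Over all members 25 were lower and 3 higher with dexamethasone alone at 24 h, where 26.5% of all genes were lower and 21.9% higher, and 31 did not overlap, against 60% of all genes. The 3 called higher were Psmc1 (170 and 114 CPM, 0.58 ± 0.05, adjusted p = 2.5e-11), Psme4 (103 and 81.2 CPM, 0.35 ± 0.05, adjusted p = 1.3e-06) and Psmf1 (31.97 and 27.7 CPM, 0.21 ± 0.07, adjusted p = 0.016). The Psmf1 call was lost without dexamethasone replicate 3 (0.189, adjusted p = 0.061) or without untreated replicate 1 (0.199, adjusted p = 0.05). Psmd14, the deubiquitinase of the 19S lid, fell most among its subunits (36.4 and 54.0 CPM, -0.57 ± 0.06, adjusted p = 1.2e-09), and Pomp averaged 79.9 and 112 CPM (-0.49 ± 0.05, adjusted p = 1.2e-09). Psmc3ip was at 0.838 CPM in dexamethasone-treated and 3.06 CPM in untreated cells (-1.86 ± 0.31, adjusted p = 3.4e-06). Summed dendritic cell markers were 9.70 to 10.9 CPM with dexamethasone and 12.1 to 13.2 CPM untreated at 24 h, and 16.2 to 16.8 CPM and 6.03 to 7.49 CPM at 4 h. Within these sums Flt3 and Kit went opposite ways. Flt3 was at 8.87 to 9.40 CPM with dexamethasone and 0.0453 to 0.224 CPM untreated at 24 h, and at 14.9 to 15.4 and 0.6455 to 1.655 CPM at 4 h. Kit was at 0.166 to 0.803 and 9.645 to 10.7 CPM at 24 h, and at 0.0425 to 0.381 and 2.075 to 2.685 CPM at 4 h. The part of these markers was not tested.

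Whether dexamethasone acted differently with LPS than without it was tested as an interaction. At 4 h the effect was more negative with LPS for Psmb9 (-1.09 ± 0.11, adjusted p = 5.9e-10), Psmb10 (-1.01 ± 0.09, adjusted p = 1.3e-11), Psme1 (-0.60 ± 0.08, adjusted p = 1e-07) and Psmb8 (-0.46 ± 0.08, adjusted p = 1.7e-05). Psme2 was not called (-0.12, 95% interval -0.29 to 0.05). None of Psmb5, Psmb6 and Psmb7 was called at 4 h, with differences of 0.04, -0.18 and -0.03, though Psmb6 passed with RLE factors, another scaling (adjusted p = 0.017), in DESeq2 (adjusted p = 0.013), without replicate 1 of both treatments (adjusted p = 0.035) and without LPS replicate 3 (adjusted p = 0.013). With library size as the only scale Psmb5 was called at 0.28 (adjusted p = 0.011), and Psmb7 turned to 0.21 (adjusted p = 0.028). At 24 h the effect was more negative with LPS for Psme2 (-0.46 ± 0.08, adjusted p = 2.5e-05), Psme1 (-0.38 ± 0.08, adjusted p = 0.00017), Psmb5 (-0.49 ± 0.09, adjusted p = 5e-05) and Psmb8 (-0.23 ± 0.08, adjusted p = 0.024), the last lost without replicate 1 of both treatments, of LPS or of dexamethasone, or without untreated replicate 3 (-0.185 to -0.218). Over all members the differences called higher and lower were 3 and 18 at 24 h, where 20.5% and 17.7% of all genes were, and 8 and 10 at 4 h, where 20.8% and 17.9% were. Those at 4 h became 28 and 6 with library size only.

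The balance also differed between untreated cells of 24 h and of 4 h. Untreated cells of 24 h had higher Psmb10 than untreated cells of 4 h (84.1 and 44.5 CPM, 0.92 ± 0.07, adjusted p = 1.5e-14), and likewise Psmb9 (48.3 and 29.04 CPM, 0.74 ± 0.08, adjusted p = 1.7e-09). Psme1 (118 and 83.9 CPM, 0.50 ± 0.06, adjusted p = 1.4e-09) and Psmb8 (84.1 and 72.4 CPM, 0.22 ± 0.06, adjusted p = 0.0017) were also higher at 24 h. Psme2 was not called (83.4 and 85.9 CPM). Of the 31 standard 26S subunits, 26 were lower and 3 higher at 24 h (median -0.40), Psmb5 among the lower (56.5 and 79.3 CPM, -0.49 ± 0.07, adjusted p = 5.3e-08) and Psmb6 among the higher (122 and 97.1 CPM, 0.33 ± 0.05, adjusted p = 2.3e-06). Over all members 34 were lower and 8 higher, where 30.4% and 30.6% of all genes were, and 41 did not overlap, against 66.9%. Summed neutrophil markers were 2.37 to 2.90 CPM at 24 h and 34.1 to 50.3 CPM at 4 h, dendritic cell markers 12.1 to 13.2 CPM and 6.03 to 7.49 CPM. Within the dendritic sum, Kit was at 9.645 to 10.7 CPM at 24 h and 2.075 to 2.685 CPM at 4 h, while Flt3 and Ccr7 stood lower at 24 h. The part of these markers was not tested.

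**Figure D4:**
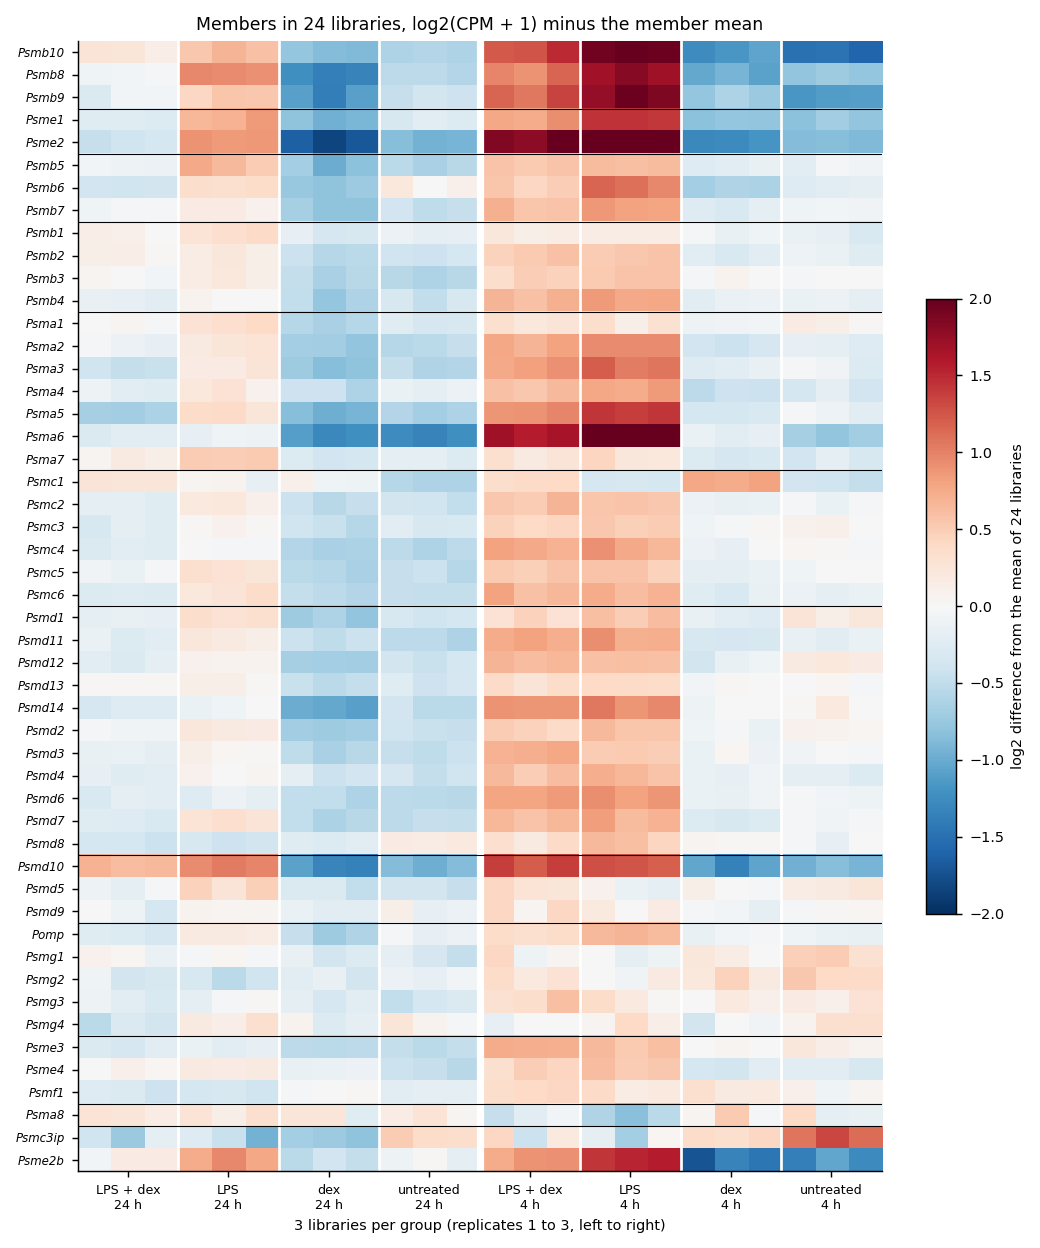
Level of each of the 50 tested members (rows, grouped by class from the inducible catalytic subunits at the top to the matches by name at the bottom) in 24 libraries (columns), as log2(CPM + 1) minus the mean of the member over all libraries. Colours are capped at a difference of 2 in either direction. The inducible members, Psma6 and Psmd10 are highest with LPS at 4 h, alone or with dexamethasone, and Psmc1 is highest with dexamethasone alone at 4 h (298 CPM on average).

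A ratio of inducible to standard partner within a library does not depend on the scaling between libraries. Ratios are of counts per kilobase of annotated exon and are given as descriptions, since the exon length includes every annotated exon and sets the absolute level. At 4 h the ratio of Psmb10 to Psmb7 was 7.64 ± 0.52 with LPS and 1.23 ± 0.06 in untreated cells (SD, n = 3 each), a 6.18-fold difference. The ratio of Psmb8 to Psmb5 was 0.834 ± 0.055 with LPS and 0.243 ± 0.012 untreated (3.43-fold), and that of Psmb9 to Psmb6 was 0.504 ± 0.058 with LPS and 0.153 ± 0.00017 untreated (3.28-fold). All 3 pairs shifted to the inducible partner with no overlap between libraries. At 24 h the same LPS ratios over untreated ones differed by 1.54-fold for Psmb10 to Psmb7 (4.70 ± 0.24 and 3.05 ± 0.16), by 1.61-fold for Psmb9 to Psmb6 (0.325 ± 0.019 and 0.203 ± 0.023) and by 1.20-fold for Psmb8 to Psmb5 (0.477 ± 0.031 and 0.396 ± 0.025). The libraries did not overlap in any of these.

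Dexamethasone moved the pairs unequally. With both treatments at 4 h, Psmb8 to Psmb5 was 0.530 ± 0.044, against 0.834 ± 0.055 with LPS alone, and Psmb10 to Psmb7 was 5.62 ± 0.80, against 7.64 ± 0.52, neither with overlap. Psmb9 to Psmb6 overlapped (0.479 ± 0.048 and 0.504 ± 0.058). The sum of the 3 inducible over the sum of the 3 standard subunits was 1.18 ± 0.12 with both treatments and 1.55 ± 0.11 with LPS alone at 4 h. At 24 h the sums did not separate the groups, at 0.888 ± 0.021 with both treatments and 0.844 ± 0.054 with LPS alone. Of the pairs, Psmb8 to Psmb5 was lower without overlap (0.394 ± 0.017 with both treatments and 0.477 ± 0.031 with LPS alone), as was Psmb10 to Psmb7 (4.11 ± 0.23 and 4.70 ± 0.24), while Psmb9 to Psmb6 overlapped. Dexamethasone alone gave 0.446 ± 0.010 at 4 h, against 0.344 ± 0.016 in untreated cells without overlap, and 0.632 ± 0.021 at 24 h, against 0.607 ± 0.044 with overlap. Psmb8 to Psmb5 went the other way without overlap, at 0.276 ± 0.018 with dexamethasone alone and 0.396 ± 0.025 in untreated cells at 24 h, and at 0.2195 ± 0.017 and 0.243 ± 0.012 at 4 h. The gap at 4 h was narrow, between a highest ratio of 0.2323 with dexamethasone and a lowest of 0.2354 in untreated cells. Untreated cells of 24 h had the higher ratio than untreated cells of 4 h (0.607 and 0.344, 1.76-fold).

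**Figure D5:**
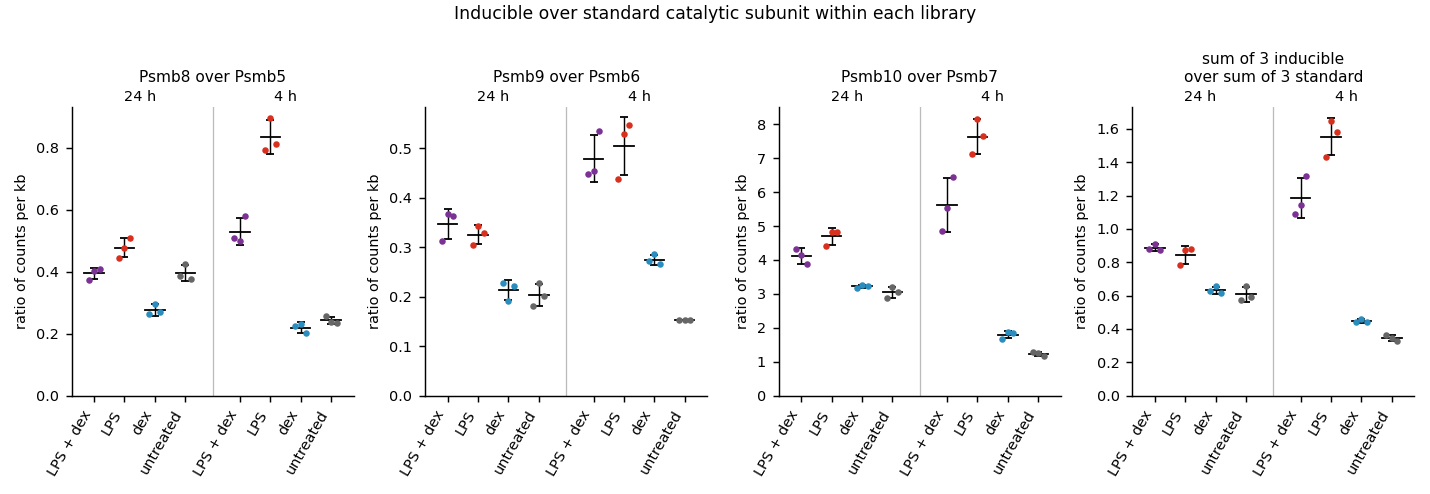
Ratio of counts per kilobase (vertical axes, linear from 0) of each inducible catalytic subunit over its standard counterpart, and of their sums, in each of 24 libraries. Points are libraries, bars means and whiskers standard deviations of 3 libraries. The summed ratio is 1.55 with LPS and 0.344 in untreated cells at 4 h, and at 24 h the groups with both treatments (0.888) and LPS alone (0.844) overlap.

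Per exon length, the median of the inducible members was above that of the standard core with LPS at 4 h and below it in untreated cells of 4 h, with single members on either side. In LPS-treated cells of 4 h they lay between 144 (Psmb9) and 1053 TPM (Psme2), with a median of 393, while the 14 standard core subunits had a median of 165 and a highest value of 1288 TPM (Psma6). TPM are counts per exon length, scaled to the same total in every library. In untreated cells of 4 h the inducible members lay between 32.04 (Psmb9) and 197 TPM (Psme2), with a median of 105, and the 14 standard core subunits between 85.4 (Psmb7) and 356 TPM (Psmb5), with a median of 171. In untreated cells of 24 h the inducible median was 166 TPM and that of the standard core 125 TPM. Psmb9 was the lowest inducible member in all 8 groups. Over the 8 groups, mean CPM ranged 17.6-fold for Psme2, 11.5-fold for Psmb10, 10.4-fold for Psma6, 8.48-fold for Psmb9 and 8.37-fold for Psmb8. The narrowest ranges were those of Psmd9 (1.42-fold) and Psmb1 (1.53-fold). The lowest group was dexamethasone alone at 24 h for 33 of the 50 members and untreated cells of 24 h for another 10.

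Other genes of the pathway were counted from lists. Of 12 peptide loading genes, 10 were higher and 0 lower with LPS at 4 h, and all 12 were higher at 24 h, where 34.2% and 38.8% of all genes were called higher and lower at 4 h, and 29.7% and 30.6% at 24 h. With library size as the only scale Canx, a chaperone of the class I heavy chain, turned to -0.52 at 4 h and H2-D1, a class I heavy chain, to 0 at 24 h. The largest rise at 4 h was that of Nlrc5, the transactivator of MHC class I genes (781 CPM with LPS and 29.85 CPM untreated, 4.70 ± 0.09, adjusted p = 3.1e-28). With both treatments against LPS alone, 9 of the 12 were lower and 1 higher at 24 h (22.6% and 21% of all genes), and 9 lower and 2 higher at 4 h (25.4% and 23.9% of all genes). Those called higher were Pdia3 at both times (0.23 at 24 h, 0.13 at 4 h) and Calr at 4 h (0.21), which both serve the folding of class I molecules. Tap2, the other transporter subunit, was at 169.5 CPM with both treatments and 325 CPM with LPS alone at 4 h (-0.94 ± 0.05, adjusted p = 5.5e-17), and Nlrc5 at 60.8 and 152 CPM at 24 h (-1.32 ± 0.08, adjusted p = 1.5e-14). With dexamethasone alone 8 were lower and 0 higher at 24 h (26.5% and 21.9% of all genes), Tap1 most (36.0 and 65.1 CPM, -0.85 ± 0.07, adjusted p = 5.8e-12), and 3 were lower and 6 higher at 4 h (23.7% and 17.6% of all genes).

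Of 15 proteasome-associated genes, 10 were higher and 3 lower with LPS at 4 h (34.2% and 38.8% of all genes). Zfand5, a zinc finger protein that binds and stimulates the 26S particle, was at 819 CPM with LPS and 129 CPM untreated (2.67 ± 0.05, adjusted p = 2.1e-32), and Zfand2a, a relative induced by arsenite, was at 21.3 and 127 CPM (-2.57 ± 0.08, adjusted p = 1.6e-26). With both treatments at 4 h Zfand5 was at 371 CPM, against 819 CPM with LPS alone (-1.14 ± 0.05, adjusted p = 1.3e-20), and 3 of the 15 were higher and 3 lower, near the 23.9% and 25.4% of all genes. At 24 h of LPS 9 were higher and 5 lower (29.7% and 30.6% of all genes), and with both treatments 1 was higher and 7 lower (21% and 22.6% of all genes). Dexamethasone alone left 1 higher and 6 lower at 24 h (21.9% and 26.5% of all genes), and 1 higher and 8 lower at 4 h (17.6% and 23.7% of all genes).

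All 8 regulators of proteasome genes in the list were measured. Irf1, a factor that activates the inducible subunits, was at 435 CPM with LPS and 26.99 CPM untreated at 4 h (4.01 ± 0.07, adjusted p = 5.6e-33). With both treatments at 24 h, Irf1 was at 54.2 CPM, against 137 CPM with LPS alone (-1.33 ± 0.07, adjusted p = 2.3e-18). At 4 h the same difference was -0.36 ± 0.06 for Irf1 (adjusted p = 9.1e-06). Irf8, a myeloid factor that also binds such promoters, stood at 31.2 CPM with both treatments, against 262 CPM with LPS alone at 4 h (-3.07 ± 0.06, adjusted p = 3.3e-30). Irf8 thus changed most of the list in this comparison of 4 h, and its value with both treatments at 4 h lay under that of every other group.

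Nfe2l1, the factor that raises standard subunits when proteasomes are short, was at 477 CPM with LPS and 194.7 CPM untreated at 4 h (1.29 ± 0.05, adjusted p = 1.2e-22), and at 366 and 171 CPM at 24 h (1.10 ± 0.05, adjusted p = 4.9e-20). Ddi2, the protease that activates it, fell at 4 h of LPS (40.5 and 145 CPM, -1.84 ± 0.06, adjusted p = 8.7e-26). Ngly1, the glycanase that Nfe2l1 needs, was not called with LPS (-0.03 at 4 h), but stood at -0.80 with library size only (adjusted p = 8.8e-10). Nfe2l2, the antioxidant factor, was at 490 CPM with LPS and 195.1 CPM untreated at 4 h (1.33 ± 0.05, adjusted p = 4e-24), and Nfya, a CCAAT-binding subunit, at 143 and 211.5 CPM (-0.56 ± 0.05, adjusted p = 3.6e-13). With both treatments against LPS alone at 24 h, Nfe2l1 was lower (256 and 366 CPM, -0.52 ± 0.05, adjusted p = 1.1e-10), Nfe2l2 was lower (-0.46 ± 0.05, adjusted p = 3.3e-10) and Ddi2 was higher (217 and 117 CPM, 0.89 ± 0.05, adjusted p = 2.5e-16). At 4 h Nfe2l2 went the other way, at 676 to 683 CPM with both treatments and 463 to 508 CPM with LPS alone. Nfe2l1 was called slightly higher at 4 h (510 to 564.5 and 460 to 509 CPM). This call was lost without LPS replicate 1 or 3, or without replicate 3 of both treatments. With dexamethasone alone Nfe2l1 was lower at 24 h (127 and 171 CPM, -0.42 ± 0.05, adjusted p = 1.4e-08) and at 4 h (144.5 and 194.7 CPM, -0.43 ± 0.05, adjusted p = 1.2e-08). Over the list the counts were 5 higher and 2 lower with LPS at 4 h (34.2% and 38.8% of all genes), and 1 higher and 6 lower with both treatments at 24 h (21% and 22.6% of all genes).

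The genes whose pattern was most like that of the inducible catalytic subunits were found by the Pearson correlation of log2 CPM with the mean of Psmb8, Psmb9 and Psmb10 over the 24 libraries. Outside the members these were Sp100 (0.994), Phf11b (0.992), Isg20 (0.990), Batf2 (0.990) and Gbp2 (0.989), all known as interferon-inducible. Within the members, which include the 3 genes that make up the mean, Psme1 (0.984) and Psme2 (0.975) came nearest, followed by Psma4 (0.961), Psma2 (0.937) and Psmd10 (0.934). At the other end stood Psma8 (-0.63), Psmc3ip (-0.32) and Psmg2 (-0.13). Psmc1 was the lowest of the standard 26S subunits (-0.03). The 24 libraries share the 8 groups and their scaling, so these values describe likeness across groups and carry no test.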

How the data were processed

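The deposited values are raw counts of read pairs per gene, with no normalization by the authors. Per the file headers, featureCounts 2.0.0 counted read pairs over exons by gene without regard to strand, leaving out pairs with several alignments or that overlap several genes. STAR is named in the submitters' processing notes, which give GRCm38 (mm10) as the build, while the header names the annotation GENCODE M29, so no gene coordinates from it are printed. Gene length, also deposited as a column, is the summed length of all annotated exons.

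All 24 libraries were fitted together with 1 mean per group by edgeR 4.0.16 in R 4.3.3 (TMM factors, filterByExpr, quasi-likelihood F test). Adjusted p-values are Benjamini-Hochberg values over all 14985 genes tested, called at 0.05. Standard errors were taken from the fold change and its F statistic (size over root F). The fit was also run on simulated counts, in which few genes changed, evenly up and down, with the same spread for all genes. That setting lacks the shift in scale seen with LPS at 4 h, so it does not bear on the choice of scaling. Likeness was computed over genes with a mean of at least 5 CPM.

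The members, lists and tests were chosen with earlier results of these data known. Genes named are the catalytic pairs, PA28 and Pomp, the called members of each class with the largest and smallest log2 fold change, the listed regulators, of which 1 is not reported here, and the called genes of the other lists that moved most, and not each of these is printed for every comparison. Psmc1, Psma6 and Psmd10 were singled out after their values were seen. Alternatives were DESeq2 1.42.0, RLE factors, library size only, no filter, only the groups compared, a replicate block and leaving out each library.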

Additional observations from a re-analysis of the deposited data

Results flagged for a closer look

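These genes were picked out because the effect of a treatment differed between 24 h and 4 h in a test of that difference in edgeR's fit of all 24 libraries. The log2 effect of LPS at 24 h minus that at 4 h was -2.31 for Psmb10, -2.10 for Psmb9, -1.48 for Psme2, -1.19 for Psme1 and -1.01 for Psmb8. Among the standard catalytic subunits it was -1.07 for Psmb6 and -0.30 for Psmb7, while Psmb5 had a positive difference of 0.51. The log2 effect of dexamethasone under LPS at 24 h minus that at 4 h was -0.78 for Psme2, -0.67 for Psmb5, -0.38 for Psme1, -0.29 for Psmb8 and 0.27 for Psmb10. The value of Psmb7 under LPS turned to 0.27 with library size as the only scale. The value of Psmb10 for dexamethasone was 0.08 under that scale (adjusted p = 0.44), and 0.218 without replicate 1 of both treatments at 4 h (adjusted p = 0.051).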

How the results depend on the processing

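The scaling moved the counts most. With library size only, the members called higher and lower were 18 and 24 for LPS at 4 h, 29 and 9 for both treatments against LPS at 4 h, 32 and 9 for the LPS effect at 24 h against that at 4 h, 0 and 40 for the dexamethasone effect under LPS at 24 h against that at 4 h, and 28 and 6 for the interaction of dexamethasone with LPS at 4 h. Under that scale the log2 value for LPS at 4 h was called in the other direction in Psmb1 (-0.421), Psma1 (-0.608), Psmc3 (-0.319) and Psmd1 (-0.391). So were Psmf1 (-0.549), Canx (-0.519) and Irf8 (-0.167). Psmb7 turned round to called values for the LPS effect at 24 h against that at 4 h (0.267) and for the interaction at 4 h (0.209). Psmb5 did so for both treatments at 4 h (0.157). The main fit called neither this Psmb5 value nor the Psmb7 interaction. Other values changed sign or reached 0 without a call. These were Psmb5 for LPS at 4 h (-0.043), and Psmb7 (0.019), Psma2 (0.026) and Psme4 (0.078) for both treatments at 4 h. The others were Pomp (0.075) for the LPS effect at 24 h against that at 4 h, and H2-D1 (0) for LPS at 24 h. With only the groups compared, dexamethasone at 4 h had 8 higher and 13 lower. Leaving out single libraries gave 3 to 8 members higher with both treatments at 4 h.

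Of 252 results on single named genes, 245 kept their call in DESeq2, 244 with RLE factors, 238 without the filter and 217 with library size only. Kept means the same call, in the same direction where called. A change of sign in a result called in neither fit was not counted. With only the groups compared, 251 results could be set against the main fit, of which 240 kept their call, 9 lost it and 2 gained one. Same-numbered libraries of different groups showed no sign of deviating together (correlations of -0.044 to 0.046, against -0.048 to 0.056 for unlike numbers). A weak shared effect could go unseen in this, and the labels do not say what the numbers stand for. With the replicate block, 41 members were higher and 5 lower for LPS at 4 h, and 251 of the 252 results kept their call.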
